A study of Mus musculus with 2 samples.

Results

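The chemokine ligand genes of the omental single-cell libraries were followed by the cells that carried their transcripts and by their levels in WT and *Postn*-DTR mice. Members were the listed genes whose symbol reads Ccl, Cxcl, Xcl or Cx3cl followed by a digit, which gave 31 of the 19960 genes in the matrices. They lie mostly in gene clusters, with 12 on chromosome 11, 8 on chromosome 5, 4 on chromosome 8, 3 on chromosome 4, 2 on chromosome 13 and 1 each on chromosomes 1 and 6 (GRCm38/mm10). The omentum is a fold of peritoneal fat with lymphoid clusters called milky spots. Cells were captured 5 days after injection of diphtheria toxin (DT), with 1 library per genotype. *Postn*-DTR mice are heterozygous for the DT receptor inserted at the first coding exon of *Postn*, made by genome editing in C57BL/6 mice, so that DT can remove cells that express *Postn*, a gene of matrix-forming stromal cells, wherever they lie. WT mice received DT as well and carry no receptor gene at that locus. Mice of a genotype were pooled before capture, the design had no replicates, and no p-value or standard error can be given. Intervals below cover counting error alone. In this tissue as in any bulk or pooled sample, fewer cells of a type and less RNA per cell cannot be told apart in a library-wide level, so levels are given per cell class first.

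Chemokines are small secreted proteins that guide leukocytes along concentration gradients through receptors coupled to G proteins. Homeostatic members such as CXCL13, CCL19 and CXCL12 come largely from stromal cells and organise lymphoid tissue, drawing B cells through CXCR5, T cells and dendritic cells through CCR7, and many leukocytes through CXCR4. Inflammatory members are made by activated macrophages, neutrophils and lymphocytes, and call in neutrophils through CXCR2, monocytes through CCR2 and activated T and NK cells through CXCR3. XCL1 is made by NK and activated T cells and acts on XCR1, a receptor of cross-presenting dendritic cells.

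After the limits on genes per cell and mitochondrial share, 8654 WT cells and 5727 *Postn*-DTR cells remained, with a median of 5635 and 8472 unique molecular identifiers (UMIs) per cell and 80152113 and 81011255 UMIs in all. The libraries shared 65 barcodes. *Postn*, the targeted gene, was read in the stromal-like class, where its level was 0.619 UMIs per 10000 in WT mice (53 UMIs in 46 cells) against 0.123 in *Postn*-DTR mice (9 UMIs in 25 cells). Each cluster took the name "X-like" by its markers, and neither chemokine ligands nor V, D and J segments took part in the clustering. Stromal cells were few, 0.532% of cells in WT mice against 0.437% in *Postn*-DTR mice. In every one of them fibroblast markers outweighed mesothelial and endothelial markers, though 3 WT cells lay within 2-fold of that border. Mesothelial genes were present in the class as well. *Upk3b* was at 6.96 in WT (34 of 46 cells) and 1.80 in *Postn*-DTR (17 of 25 cells), and *Msln* at 2.15 (20 cells) and 0.853 (9 cells). Their part in the stromal comparisons below was not tested. Plasma-like cells made up 7.07% of the WT library and 38.2% of the *Postn*-DTR library, neutrophil-like cells 2.81% and 13.7%, and macrophage-like cells 1.43% and 5.76%, whereas NK-like cells took 4.66% and 2.60% and NKT-like cells 6.26% and 1.89%.

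The upstream sequences of 6 members on which the results turn are shown to place the genes and the motifs that their promoters share. Each run is the 250 bases before the RefSeq start (GRCm38.p6), written 5′ to 3′ on the strand of the gene, with capitals for a match on either strand to TATAAA or to the NF-κB consensus, the site bound by a factor of inflammatory transcription.
Cxcl13 (chr5:95956689-95956938, plus strand): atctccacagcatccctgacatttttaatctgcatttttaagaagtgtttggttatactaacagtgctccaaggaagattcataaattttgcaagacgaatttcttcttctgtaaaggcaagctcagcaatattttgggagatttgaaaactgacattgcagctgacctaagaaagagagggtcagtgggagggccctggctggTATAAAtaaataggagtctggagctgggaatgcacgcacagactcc
Cxcl12 (chr6:117168285-117168534, plus strand): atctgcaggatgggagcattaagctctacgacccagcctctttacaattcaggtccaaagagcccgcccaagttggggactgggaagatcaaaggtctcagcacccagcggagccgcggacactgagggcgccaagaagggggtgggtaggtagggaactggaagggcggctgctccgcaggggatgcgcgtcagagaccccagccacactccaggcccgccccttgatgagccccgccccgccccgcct
Xcl1 (chr1:164935523-164935772, minus strand): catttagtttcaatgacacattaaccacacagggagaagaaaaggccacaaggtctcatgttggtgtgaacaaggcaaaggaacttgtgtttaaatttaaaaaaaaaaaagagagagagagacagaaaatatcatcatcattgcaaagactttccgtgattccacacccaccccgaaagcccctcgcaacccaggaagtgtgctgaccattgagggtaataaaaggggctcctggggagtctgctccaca
Cxcl1 (chr5:90890995-90891244, plus strand): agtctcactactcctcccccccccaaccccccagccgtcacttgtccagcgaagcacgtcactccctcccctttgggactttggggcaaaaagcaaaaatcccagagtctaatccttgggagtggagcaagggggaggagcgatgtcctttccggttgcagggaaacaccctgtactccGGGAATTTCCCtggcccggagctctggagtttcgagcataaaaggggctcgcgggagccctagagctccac
Cxcl2 (chr5:90903649-90903898, plus strand): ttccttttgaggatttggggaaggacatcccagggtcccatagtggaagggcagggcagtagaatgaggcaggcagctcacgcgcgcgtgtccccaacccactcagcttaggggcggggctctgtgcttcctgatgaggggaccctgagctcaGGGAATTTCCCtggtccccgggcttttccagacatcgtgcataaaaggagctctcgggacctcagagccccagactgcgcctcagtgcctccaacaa
Cxcl3 (chr5:90785851-90786100, plus strand): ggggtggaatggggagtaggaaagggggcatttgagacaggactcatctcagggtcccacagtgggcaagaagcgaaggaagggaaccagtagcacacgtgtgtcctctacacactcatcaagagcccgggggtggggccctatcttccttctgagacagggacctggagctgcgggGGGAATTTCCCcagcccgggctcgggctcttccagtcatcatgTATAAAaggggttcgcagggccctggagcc
The sequence table held 23 of the 31 members. The NF-κB consensus stood in 5 of these 23 (21.7%) and in 3.75% of the 27025 promoters of all genes, and TATAAA in 7 of 23 (30.4%) against 12.97%. In the neutrophil-attracting genes *Cxcl1*, *Cxcl2* and *Cxcl3*, which lie in the same region of chromosome 5, the NF-κB match began 71, 97 and 73 bases before the start. Each had an overlapping match on the opposite strand. *Cxcl13* held TATAAA from base 46 to base 41 before its start, and the windows of *Cxcl12* and *Xcl1* matched neither motif. A match describes letters only.

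Of the 31 members, 24 reached 50 UMIs over both libraries in at least 1 named class and could be given a source. The source is the class with the highest level over the cells of both libraries together, among named classes with at least 50 UMIs of the gene. Classes with more *Postn*-DTR than WT cells thus lean on the *Postn*-DTR level. A level is the mean over the cells of a class of UMIs per 10000 UMIs of a cell, and where a pair of values has no label the WT value stands first. Macrophage-like cells were the source of 7 members (*Ccl6*, *Ccl7*, *Ccl8*, *Ccl9*, *Ccl12*, *Ccl24* and *Cxcl1*), more than any other named class. NK-like cells were the source of *Ccl5* and *Xcl1*, stromal-like cells of *Cxcl12* and *Cxcl13*, neutrophil-like cells of *Cxcl2* and *Cxcl3*, mast-like cells of *Ccl2* and *Ccl3*, cDC2-like dendritic cells of *Ccl22* and *Cxcl16*, and LTi-like innate lymphoid cells of *Cx3cl1* and *Cxcl10*. Single members had their source in cDC1-like cells (*Cxcl9*), plasmacytoid dendritic (pDC-like) cells (*Ccl4*), ILC2-like cells (*Ccl1*), CD4 T-like cells (*Ccl25*) and plasma-like cells (*Ccl27a*). The last 2 were near the floor of the data, with levels of 0.0955 and 0.0112 in their source. Unnamed clusters were not ranked as sources. Among them cluster 27, led by *Tagln*, *Acta2* and *Myl9* (17 WT and 9 *Postn*-DTR cells), held 7.14% of the *Cxcl1* UMIs in WT and 7.13% in *Postn*-DTR. It also held 4.67% of the *Cxcl12* UMIs in WT and 0 in *Postn*-DTR. By number of UMIs the picture differed, because this measure also depends on how many cells a class has and on their depth. In WT there were 451 cDC2-like cells at a median of 11038 UMIs and 124 macrophage-like cells at 4990. The cDC2-like cells held the largest part of 8 of the 24 members in WT and of 2 in *Postn*-DTR, where macrophage-like cells held the largest part of 6. The class with the most UMIs was the same in both libraries for 13 of the 24. The source of *Cxcl2* was macrophage-like, that of *Ccl8* cDC2-like and that of *Ccl4* mast-like when levels were taken from summed UMIs. In WT alone, *Cxcl2* and *Cxcl13* had a higher mean level in macrophage-like cells than in the source named above. *Ccl12* in WT alone was higher in cDC2-like than in macrophage-like cells.

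**Figure D1:**
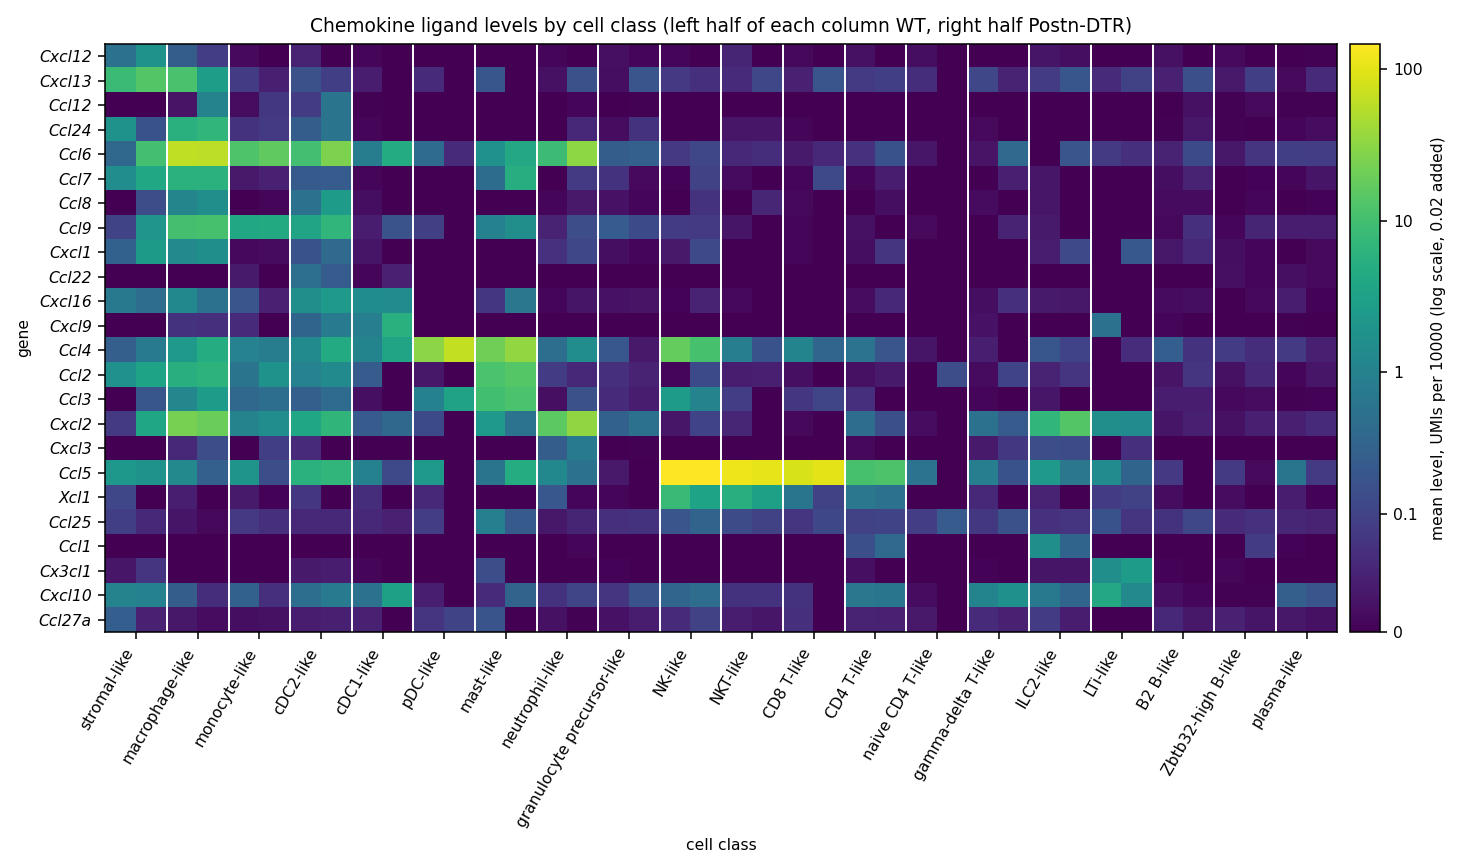
Mean level of the 24 chemokine ligands with at least 50 UMIs in a class (rows) in 20 named cell classes (columns, WT on the left and *Postn*-DTR on the right within each), on a log colour scale in UMIs per 10000 with 0.02 added. *Ccl5* in NK-like cells, at 147 in both libraries, is the brightest, and myeloid classes carry the largest number of ligands.

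Across classes with at least 20 cells in each library, 123 pairs of a ligand and a class held at least 50 UMIs. Of these, 30 (24.4%) were at least 2-fold higher and 28 (22.8%) at least 2-fold lower in *Postn*-DTR, with 0.02 UMIs per 10000 added to both levels. Among all genes, 2.78% of 122487 gene and class pairs were past 2-fold higher and 4.79% past 2-fold lower. The 22 receptors listed for context gave 7 higher and 23 lower of 122 pairs. Monocyte-attracting ligands (*Ccl2*, *Ccl7*, *Ccl8* and *Ccl12*) were past 2-fold higher in 5 of 13 pairs and lower in 0, with a median log2 ratio of 0.57. CXCR2 ligands gave 5 higher and 4 lower of 17 pairs (median 0.53), CXCR3 ligands 2 and 3 of 13 (median 0.22), and lymphoid-homing ligands 3 and 1 of 12 (median 0.19). Ligands that act on CCR3, CCR4 or CCR8 gave 2 and 2 of 7 (median -0.22), and the membrane-anchored *Cxcl16* and *Cx3cl1* gave 0 and 1 of 5 (median -0.57). Many of these pairs rested on few cells, as the values below show.

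**Figure D2:**
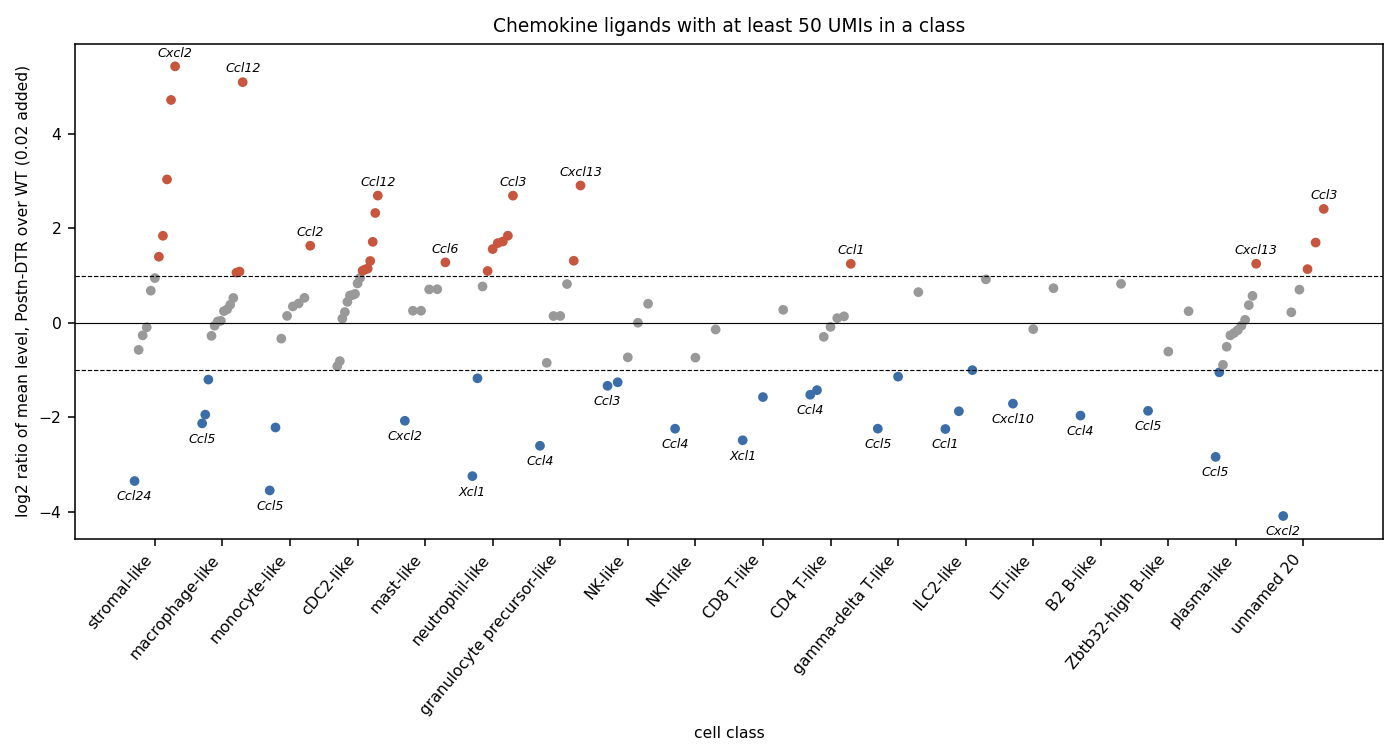
Log2 ratio of the mean level in *Postn*-DTR over WT (0.02 UMIs per 10000 added to both) for each of the 123 ligand and class pairs with at least 50 UMIs, by cell class. Points past the dashed 2-fold lines are red (30, higher) or blue (28, lower), and the highest and lowest past 2-fold in each class is named. Points of neutrophil-like, cDC2-like and stromal-like cells lie mostly above 0.

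*Cxcl13* (ENSMUSG00000023078, chr5:95956951-95961068, plus strand), the B cell attractant, came from stromal-like and macrophage-like cells. In stromal-like cells its level was 8.61 UMIs per 10000 in WT mice (907 UMIs, 16 of 46 cells) against 13.8 in *Postn*-DTR mice (559 UMIs, 8 of 25 cells). In macrophage-like cells it was 11.4 in WT mice (854 UMIs, 36 of 124 cells) against 2.96 in *Postn*-DTR mice (321 UMIs, 47 of 330 cells). The log2 ratio of levels was thus -1.95 in macrophage-like cells, and -2.63 by summed UMIs with a 95% interval of -2.82 to -2.45, so the *Postn*-DTR level was lower by more than counting error. In WT the macrophage-like level stood above the stromal-like level beyond counting error (11.9 with an interval of 11.1 to 12.7 against 8.62 with 8.07 to 9.20, in summed UMIs per 10000), and in *Postn*-DTR the order was the reverse (1.92 with 1.71 to 2.14 against 10.9 with 10.0 to 11.8).

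The stromal-like value of *Cxcl13* rested on single cells. The 3 cells richest in it held 65.9% of the stromal UMIs in WT and 97.3% in *Postn*-DTR, where 1 cell carried 404 of the 559 UMIs. The log2 ratio was 0.68, and -0.01 when the richest cell of each library was left out. The *Postn*-DTR stromal-like cells also carried more transcripts of other types: their summed level of 13 macrophage markers was 71.8 against 19.96 in WT (11 and 12 of them above 0), and that of 10 neutrophil markers 97.8 against 9.95 (10 and 9 above 0). In 8 of the 25 *Postn*-DTR cells and 3 of the 46 WT cells these markers together outnumbered the fibroblast markers. Without those cells *Cxcl13* was 8.77 in WT mice against 4.05 in *Postn*-DTR mice, a log2 ratio of -1.11, so the direction in stromal cells depended on which cells were counted. The share of stromal-like cells with a *Cxcl13* UMI, each cell thinned to 1000 UMIs, was 17.4% (exact Clopper-Pearson 95% interval 7.82 to 31.4) for WT against 16% (4.54 to 36.1) for *Postn*-DTR. Without thinning it was 34.8% and 32.0%.

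In macrophage-like cells the lower *Cxcl13* showed in the share of cells as well as in the level. With cells thinned to 1000 UMIs, 19.8% (13.1 to 28.1) of 121 WT cells and 9.03% (5.93 to 13.03) of 277 *Postn*-DTR cells held a UMI, 3 and 53 shallower cells being left out. Unthinned shares were 29.0% and 14.2%, at median depths of 4990 and 3503 UMIs. B2 B-like cells, which should lack the gene, gave 0.333% and 1.598% when thinned (1.20% and 3.85% unthinned, at median depths of 4403 and 3286 UMIs), and T-like cells gave 0.428% and 0.630%. At a finer clustering the macrophage-like clusters were not subsets of this class, since they held 160 and 18 WT cells where the class held 124. *Cxcl13* was 6.82 in WT mice against 2.82 in *Postn*-DTR mice in the cluster led by *Lyve1*, *Cbr2* and *Folr2* (160 and 197 cells). It was 21.5 and 2.94 in the cluster led by *Alox15*, *Prg4* and *Saa3*, genes of cavity macrophages (18 and 144 cells). The mean level was lower in *Postn*-DTR in each of these clusters. In the first, 1 WT cell held 104 of 518 UMIs, and the log2 ratio of summed UMIs was -0.65 (interval -0.90 to -0.39), within 2-fold. In the second, 1 of the 18 WT cells held 238 of 452 UMIs. There the log2 ratio was -2.87 by mean level, -2.19 without the richest cell of each library and -4.23 by summed UMIs. Monocyte markers were also higher in the *Postn*-DTR macrophage-like cells (summed level 31.1 in WT mice against 52.3 in *Postn*-DTR mice over 9 genes, 8 and 9 above 0), as were neutrophil markers (1.79 and 15.1 over 10 genes, 6 and 10 above 0), and their part in the result was not tested.

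Outside these classes *Cxcl13* was rare. The granulocyte precursor-like class was past 2-fold higher in *Postn*-DTR, at 0.00800 in WT mice (3 UMIs) against 0.190 in *Postn*-DTR mice (190 UMIs), but 1 cell held 182 of those 190 UMIs. Plasma-like cells held 12 and 90 UMIs, no cell over 6, and were also past 2-fold higher, at 0.00502 and 0.0395. Over the whole library *Cxcl13* was 0.257 UMIs per 10000 in WT mice against 0.312 in *Postn*-DTR mice, and stromal-like cells held 43.6% and 43.4% of its UMIs and macrophage-like cells 41.1% and 24.9%. Its receptor gene *Cxcr5* was highest in B2 B-like cells in WT mice (2.001 and 1.85) and in Zbtb32-high B-like cells in *Postn*-DTR mice (1.76 and 2.21). The genes most like *Cxcl13* over 36 points (18 classes in 2 libraries) were *Jam2*, *Adamtsl5* and *Kitl*, with Pearson correlations of 0.90, 0.90 and 0.90 on the log2 level, points that share library and depth.

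*Cxcl12* (ENSMUSG00000061353, chr6:117168535-117181367, plus strand), which retains CXCR4-bearing cells, had a single class over 50 UMIs. No cluster was named endothelial. Endothelial cells, in which the study also found *Cxcl12* mRNA by quantitative PCR, therefore have no level here. Stromal-like cells held 32 UMIs in 10 cells in WT and 138 UMIs in 4 cells in *Postn*-DTR, at levels of 0.528 and 1.94. The log2 ratio was 1.88, and 1.35 without the richest cell of each library. The 3 richest *Postn*-DTR cells carried 58, 57 and 20 UMIs, so that 97.8% of the UMIs came from 3 of 25 cells. Unlike *Cxcl13*, the *Cxcl12* level stayed higher in *Postn*-DTR without the cells rich in macrophage and neutrophil markers, at 0.565 and 2.76. The share of cells with a UMI went the other way without thinning, 21.7% in WT mice against 16% in *Postn*-DTR mice, and was 6.52% (1.37 to 17.9) and 12.0% (2.55 to 31.2) when thinned, intervals that overlap. B2 B-like cells gave 0.0667% and 0 of 438 cells when thinned, which allows up to 0.685%. Macrophage-like cells held 14 and 4 UMIs, at 0.255 and 0.0813. Over the whole library *Cxcl12* was 0.0159 and 0.0141 by mean level (log2 ratio -0.17, and -0.34 at the WT class shares), and higher in *Postn*-DTR by summed UMIs (107 and 151, log2 interval 0.11 to 0.85). *Cxcr4* was highest in NK-like cells, at 2.78 and 2.91. The genes most like *Cxcl12* were *Samd4*, *Lims2* and *Jam2*, with correlations of 0.96, 0.95 and 0.95 over the same 36 points.

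*Ccl19* (ENSMUSG00000071005, chr4:42754525-42756577, minus strand), the CCR7 ligand of fibroblastic reticular cells, was at the limit of detection. The WT library held 20 UMIs and the *Postn*-DTR library 5, and no class reached 50. In WT 10 of the 20 lay in 9 cDC2-like cells and 2 in 2 stromal-like cells, and in *Postn*-DTR all 5 lay in 1 stromal-like cell. The stromal-like levels were 0.103 and 0.0803, and the ratio of summed UMIs had a log2 interval of -0.25 to 5.75. The 10 UMIs of WT cDC2-like cells against 0 in *Postn*-DTR were not a detectable difference either, since 3 UMIs in the 68 *Postn*-DTR cells would have given a higher level (log2 bound 1.32). Thinned to 1000 UMIs, 0 of 46 and 0 of 25 stromal-like cells held a UMI, which allows shares of up to 6.52% and 12% of cells with a UMI at that depth and says nothing of which cells express the gene. Unthinned, 2 of 46 and 1 of 25 held a UMI. Reads of *Ccl19* may be split with near-identical gene copies on chromosome 4. *Ccr7* was highest in B2 B-like cells in WT mice (7.93 and 9.17) and in naive CD4 T-like cells in *Postn*-DTR mice (7.12 and 9.50, the latter from 21 cells).

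*Xcl1* (ENSMUSG00000026573, chr1:164931644-164935527, minus strand) was a product of NK-like and NKT-like cells and was lower in both classes in *Postn*-DTR. In NK-like cells the level was 8.28 in WT mice (1421 UMIs, 256 of 403 cells) against 3.45 in *Postn*-DTR mice (276 UMIs, 62 of 149 cells), a log2 ratio of -1.26, or -1.04 by summed UMIs (interval -1.23 to -0.85). In NKT-like cells it was 5.24 in WT mice (1483 UMIs, 370 of 542 cells) against 3.13 in *Postn*-DTR mice (154 UMIs, 50 of 108 cells), a log2 ratio of -0.74, or -0.92 by summed UMIs (interval -1.17 to -0.68). Here no cell dominated, the richest holding 54 and 42 UMIs in NK-like cells and 55 and 18 in NKT-like cells. NK-like cells stood above NKT-like cells in both libraries, with summed levels of 8.15 (7.73 to 8.58) against 5.52 (5.25 to 5.81) in WT and 3.97 (3.51 to 4.46) against 2.93 (2.48 to 3.43) in *Postn*-DTR.

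The share of cells with an *Xcl1* UMI was lower in *Postn*-DTR as well. Thinned to 1000 UMIs it was 39.4% (34.5 to 44.4) of WT and 20.4% (14.2 to 27.8) of *Postn*-DTR NK-like cells, and 35.2% (31.1 to 39.4) and 17.6% (10.8 to 26.5) of NKT-like cells, against 0.0667% of WT and 0 of 438 *Postn*-DTR B2 B-like cells, the latter allowing up to 0.685%. Unthinned shares were 63.5% and 41.6% of NK-like and 68.3% and 46.3% of NKT-like cells, at median depths of 3901 and 3778 and of 4872 and 4790 UMIs. In CD8 T-like cells the level was 0.612 in WT mice (155 UMIs) against 0.0928 in *Postn*-DTR mice (3 UMIs in 48 cells), with a log2 interval of -5.15 to -1.29 by summed UMIs, though this order turned when cells under 500 genes were left out and the cells were clustered again (log2 ratio 0.46). In CD4 T-like cells the levels were 0.670 and 0.541, and the direction depended on the measure, with a log2 ratio of -0.31 by mean level and 0.87 by summed UMIs. A single *Postn*-DTR cell held 61 of the 122 UMIs there. The cycling cluster 20, which was left unnamed, was past 2-fold higher, at 0.699 and 1.56 (217 and 119 UMIs).

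Over the whole library *Xcl1* was 0.868 UMIs per 10000 in WT mice against 0.186 in *Postn*-DTR mice, a log2 ratio of -2.22. Had each class kept its WT share of the cells, the *Postn*-DTR level would have been 0.471 and the log2 ratio -0.88, so lower levels within classes and smaller NK-like and NKT-like classes both entered the library-wide value. Its receptor gene *Xcr1* passed 50 UMIs in cDC1-like cells alone, at 3.01 in WT mice (1012 UMIs, 152 cells) against 1.15 in *Postn*-DTR mice (32 UMIs), where only 15 cells were found. The genes most like *Xcl1* were *Samd3*, *Ifng*, the interferon of NK and T cells, and *Klrb1c*, an NK cell receptor, with correlations of 0.95, 0.91 and 0.91.

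**Figure D3:**
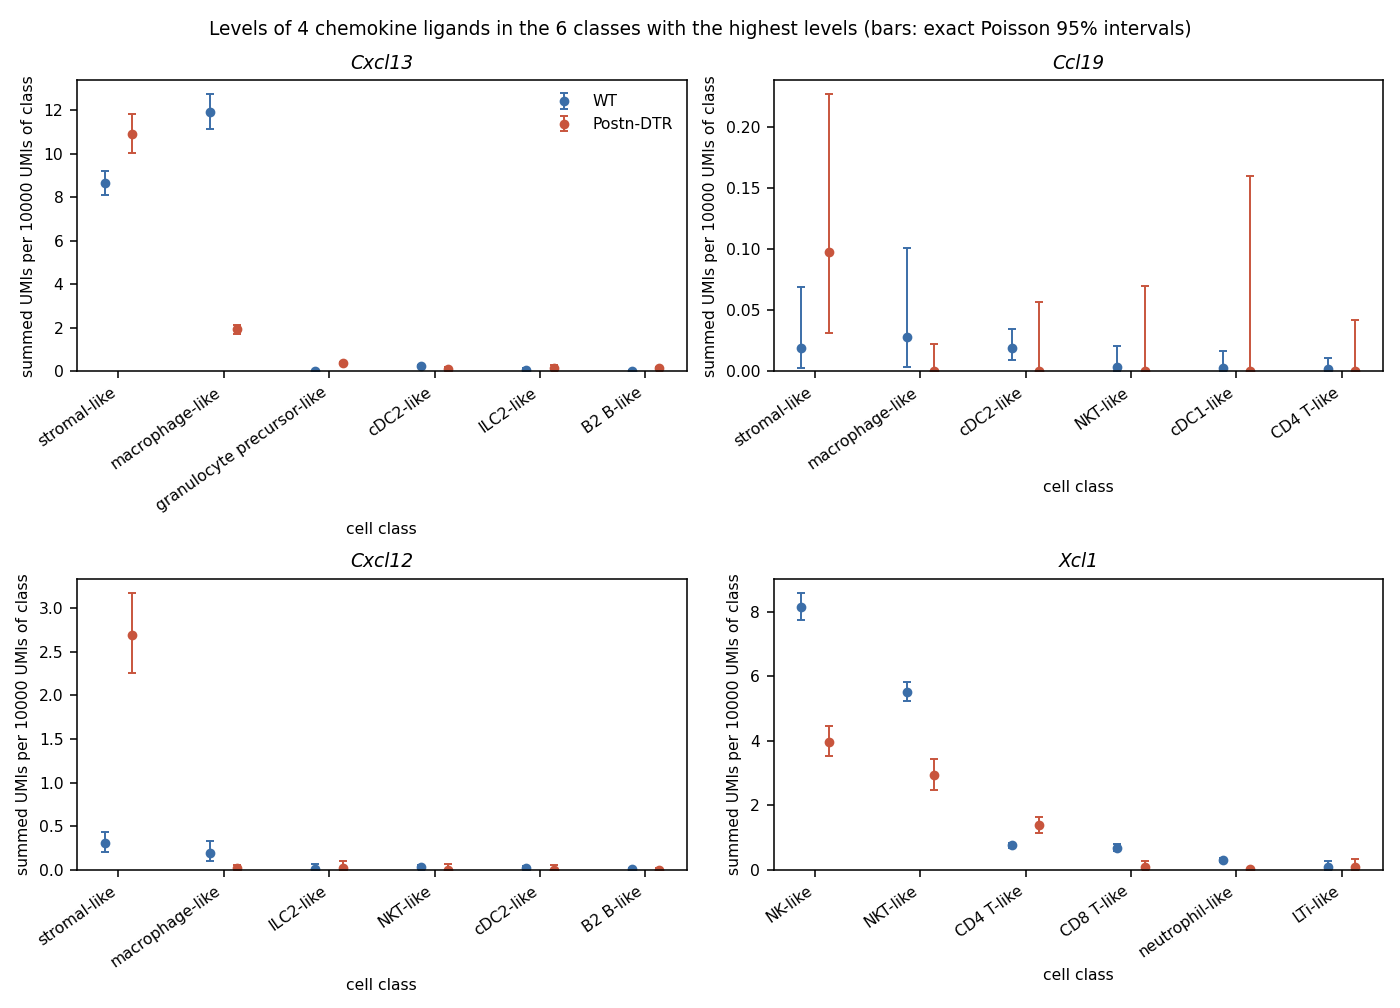
Levels of *Cxcl13*, *Ccl19*, *Cxcl12* and *Xcl1* in the 6 named classes where each was highest, as summed UMIs per 10000 UMIs of the class, in WT (blue) and *Postn*-DTR (red) with exact Poisson 95% intervals of counting. *Cxcl13* in macrophage-like cells (11.9 and 1.92) and *Xcl1* in NK-like (8.15 and 3.97) and NKT-like cells (5.52 and 2.93) lie lower in *Postn*-DTR, and *Ccl19* stays below 0.1 in every class.

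Of the other NK and T cell ligands, *Ccl3* and *Ccl4* were also lower in NK-like cells, and *Ccl5* was within 2-fold in the classes where it was high. *Ccl5*, expressed by cytotoxic cells and the member with the most UMIs (87061 in WT mice against 20373 in *Postn*-DTR mice), was 147 in both libraries in NK-like cells, 118 and 107 in NKT-like cells, 85.2 and 103 in CD8 T-like cells and 10.9 and 12.0 in CD4 T-like cells, none of them past 2-fold. The log2 ratio of summed UMIs in NK-like cells was -0.13 (interval -0.17 to -0.09). *Ccl5* was past 2-fold lower in 7 of the 14 classes where it was measured, among them plasma-like cells at 0.626 and 0.0705, and none of the 7 was a class where it was high. B2 B-like cells, which should lack the gene, moved the same way, with 48 UMIs in 36 of 1505 WT cells and 0 in 441 *Postn*-DTR cells, and the part of free RNA in these low values was not tested. In NK-like cells *Ccl4* was 18.1 in WT mice (3044 UMIs) against 10.9 in *Postn*-DTR mice (638 UMIs), a log2 ratio of -0.73 and within 2-fold, and its neighbour *Ccl3* was 2.68 and 1.05 (461 and 59 UMIs), past 2-fold lower. *Ccl4* was past 2-fold lower in NKT-like cells (0.882 and 0.171, from 201 and 3 UMIs), CD8 T-like cells (1.08 and 0.349, from 168 and 6 UMIs) and CD4 T-like cells (0.581 and 0.189, from 319 and 45 UMIs). The CD4 T-like value rested on few cells. At the finer resolution the *Foxp3* cluster held 260 WT UMIs in 2 cells, 175 of them in 1. The log2 ratio with 0.02 added was -2.49 in that CD4 T-like cluster and -4.55 in the *Zfp683* cluster. It was 1.92 in the *Spry1* cluster and 2.16 in the cycling cluster. Altogether 2 of the 5 ligands measured in NK-like cells were past 2-fold lower and 0 higher, against 1.61% and 1.25% of all genes there. Library-wide, *Ccl5* was 20.5 and 7.58, a log2 ratio of -1.43, and at the WT class shares the ratio was 0.01.

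Neutrophil-like cells were the class with the largest share of ligands past 2-fold: 6 of 9 were higher and 2 lower in *Postn*-DTR, against 6.35% and 3.21% of all genes. *Cxcl2*, a CXCR2 ligand that draws further neutrophils, was 15.8 in WT mice (2059 UMIs, 243 cells) against 33.7 in *Postn*-DTR mice (7302 UMIs, 786 cells). *Ccl6*, a CCR1 ligand of the mouse, was 9.02 (998 UMIs) and 32.4 (8112 UMIs). *Cxcl3* was 0.254 and 0.786 (31 and 172 UMIs), *Ccl4* 0.473 and 1.57, *Ccl3* 0.00843 and 0.163 (2 and 49 UMIs) and *Ccl9* 0.0292 and 0.142 (12 and 42 UMIs), and *Ccl5* (1.25 and 0.542) and *Xcl1* (0.205 and 0.00372) were the 2 that were lower. Few cells carried these 2, *Ccl5* in 15 and 8 cells and *Xcl1* in 9 and 2, and the summed level of 8 T cell markers in the class was 1.51 and 0.351 (8 and 8 above 0), whose part in the result was not tested.

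These values joined cells of different maturity, because 189 of the 243 WT cells lay in cluster 11, led by *Ltf*, *Ngp* and *Camp*, granule genes of immature neutrophils, and 485 of the 786 *Postn*-DTR cells in cluster 9, led by *Csf3r*, *Cxcr2* and *Retnlg*, genes of mature neutrophils. Within cluster 9, *Cxcl2* was 46.9 and 51.6 (54 and 485 cells), and within cluster 11 it was 6.88 and 4.94 (189 and 301 cells), so that the 2-fold difference of the whole class was found in neither. *Ccl6* was higher in *Postn*-DTR in both, at 34.3 and 50.1 in cluster 9 and 1.81 and 3.83 in cluster 11. *Ccl4* was 0.701 and 2.51 in cluster 9, and 0.408 and 0.0484 in cluster 11. The WT values rested mostly on 1 cell each, which held 20 of 24 UMIs in cluster 9 and 62 of 87 in cluster 11. *Postn*-DTR cells held 278 and 4 *Ccl4* UMIs in the 2 clusters. *Cxcr2* was highest in the neutrophil-like class, at 4.10 and 7.26. The library-wide level of *Cxcl2* was 1.32 and 6.38, a log2 ratio of 2.28, and 0.60 at the WT class shares, and neutrophil-like cells held 25.7% of its WT UMIs against 55.7% of its *Postn*-DTR UMIs.

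**Figure D4:**
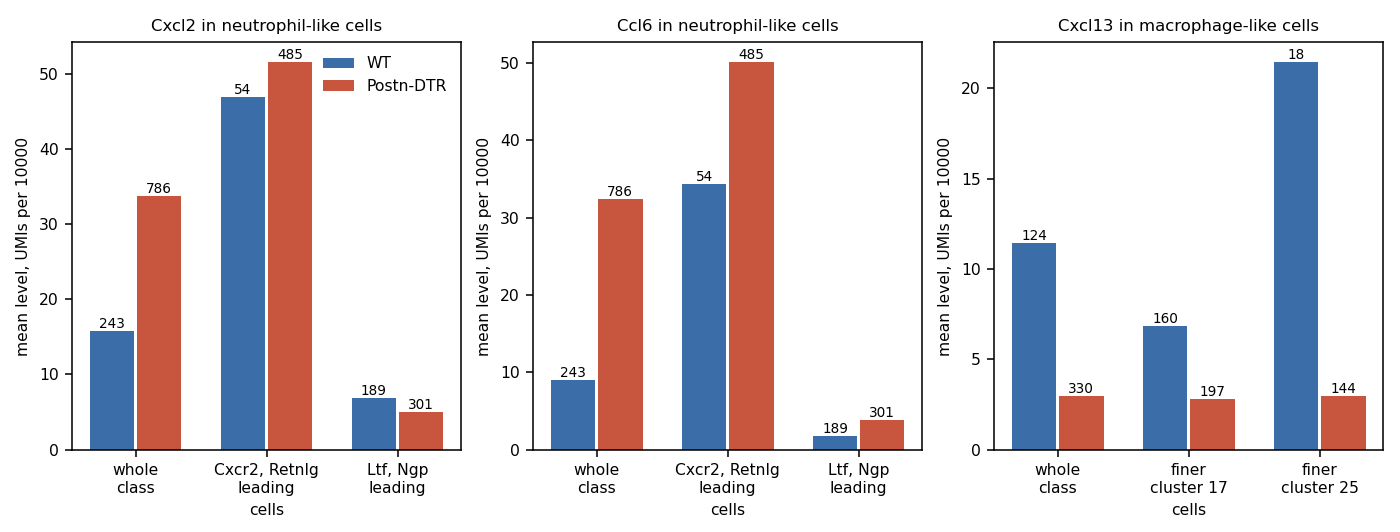
Mean level in UMIs per 10000 in WT (blue) and *Postn*-DTR (red) of *Cxcl2* and *Ccl6* in neutrophil-like cells and of *Cxcl13* in macrophage-like cells, with the number of cells above each bar. Beside the whole class stand its clusters for neutrophil-like cells. For macrophage-like cells they are the clusters of the finer resolution, which are not subsets of the class. *Cxcl2* differs little within the neutrophil-like clusters (46.9 and 51.6, 6.88 and 4.94), whereas *Cxcl13* is lower in *Postn*-DTR in both finer macrophage-like clusters (6.82 and 2.82, 21.5 and 2.94).

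Macrophage-like cells had 14 ligands over 50 UMIs, of which 3 were past 2-fold higher and 3 lower, against 5.34% and 5.7% of all genes. *Ccl12*, a CCR2 ligand, was 0.0116 in WT mice (1 UMI in 124 cells) against 1.05 in *Postn*-DTR mice (74 UMIs in 27 of 330 cells), with a log2 interval of 2.46 to 10.3 by summed UMIs. At the finer resolution the *Lyve1*-led macrophage cluster held *Ccl12* at 0.218 (49 UMIs) and 1.95 (113 UMIs), and at the coarser one the cDC2-like class held 49 WT UMIs, so the size of the difference depended on where the border between these classes lay. *Ccl3* was 1.23 and 2.62 and *Ccl4* 2.37 and 4.97, both higher, and *Cxcl13*, *Ccl5* (1.31 and 0.286) and the membrane-anchored *Cxcl16* (1.24 and 0.529), the ligand of CXCR6, were lower. Of the 59 *Ccl5* UMIs in WT, 56 lay in 1 cell. The strongest macrophage ligands were within 2-fold. *Ccl6* was 62.5 and 59.9, *Cxcl2* was 23.9 and 19.7, *Ccl9* was 10.7 and 11.04 and *Ccl7* was 5.85 and 5.96. *Ccl24*, which draws eosinophils, was 5.67 and 6.91, and *Ccl2*, the main monocyte chemokine, was 5.31 and 6.31.

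Macrophage-like cells were more frequent in *Postn*-DTR, and some ligands with a like level per macrophage-like cell had a higher library-wide level there. *Ccl24* was 0.108 UMIs per 10000 over the WT library and 0.420 over the *Postn*-DTR library, with 57.2% and 92.2% of its UMIs in macrophage-like cells. *Ccl6* was 2.003 and 9.02 over the libraries. Macrophage-like cells held 32.0% and 35.4% of its UMIs and neutrophil-like cells 7.17% and 37.8%, and its level per neutrophil-like cell was also higher in *Postn*-DTR. Of the 24 named members, 10 (by mean level) were at least 2-fold higher and 4 at least 2-fold lower over the whole library, against 7.53% and 13.1% of 14277 genes with at least 50 UMIs. With each class held at its WT share of the cells 5 were higher and 0 lower, against 3.52% and 4.92%. Per UMI of the library the balance turned, since plasma-like cells held 54983010 of the 81011255 *Postn*-DTR UMIs: 2 members were at least 2-fold higher and 8 lower, against 3.8% and 25.8% of all genes. *Ccl9* was higher by mean level (0.446 and 0.953) and lower by summed UMIs (log2 interval -0.26 to -0.12), and so was *Cxcl13* (interval -0.81 to -0.61).

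**Figure D5:**
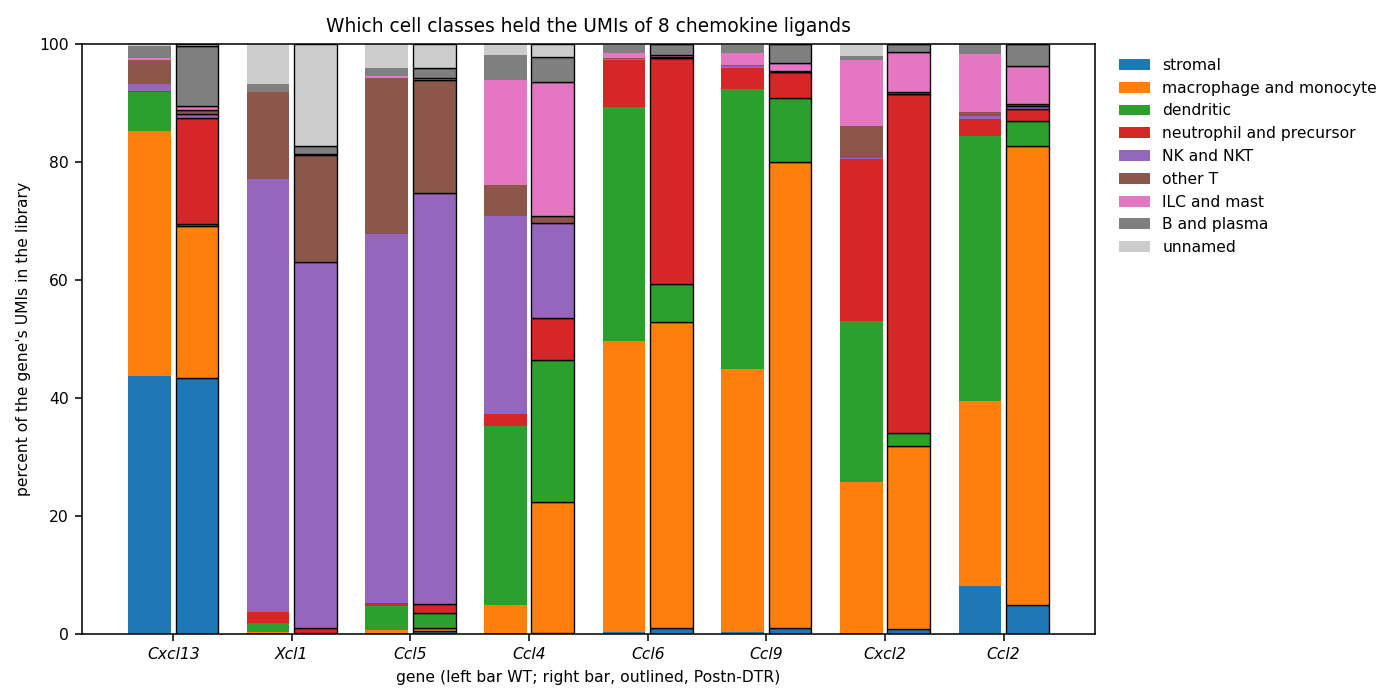
Percent of the UMIs of 8 ligands held by groups of cell classes in WT (left bar) and *Postn*-DTR (right, outlined). *Xcl1* and *Ccl5* came mainly from NK-like and NKT-like cells in both libraries, and for *Cxcl2* and *Ccl6* the part of neutrophil-like cells was larger in *Postn*-DTR (25.7% and 55.7%, 7.17% and 37.8%).

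In monocyte-like cells 1 of 8 ligands was past 2-fold higher and 2 lower, against 1.78% and 4.27% of all genes. *Ccl2* was 0.601 in WT mice (166 UMIs, 44 of 168 cells) against 1.90 in *Postn*-DTR mice (537 UMIs, 99 of 223 cells), with a log2 interval of 1.09 to 1.61, and no cell held more than 42 UMIs. *Ccr2*, its receptor gene, was highest in this class, at 7.24 and 5.64. *Cxcl10* was lower (0.302 and 0.0493), as was *Ccl5*, of which 1 *Postn*-DTR cell held 69 of 71 UMIs.

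In cDC2-like cells 7 of 17 ligands were past 2-fold higher in *Postn*-DTR and 0 lower, whereas 2.87% of all genes were higher and 9.19% lower. *Ccl6* was 10.4 (5222 UMIs) and 25.7 (1288 UMIs), *Ccl4* 1.38 and 4.58, *Ccl8* 0.537 and 2.77, *Ccl12* 0.0766 and 0.604, *Ccl24* 0.258 and 0.595, *Cxcl1* 0.170 and 0.395, and *Cxcl9*, an interferon-induced CXCR3 ligand, 0.330 and 0.731. The class was small in *Postn*-DTR, 68 cells against 451, and carried more macrophage transcripts there, with a summed level of 13 macrophage markers of 88.5 against 27.1 (11 and 13 above 0), and their part in the result was not tested. At the finer resolution the cDC2-like cluster 15 held only 1 and 1 *Ccl8* UMIs and 0 and 3 *Ccl12* UMIs, and in the *Lyve1*-led macrophage cluster *Ccl8* was 2.39 and 3.688, within 2-fold, so neither call in cDC2-like cells held there on 50 UMIs. Single cells held 197 of 251 *Ccl8* UMIs and 49 of 54 *Ccl24* UMIs in *Postn*-DTR. For *Cxcl9*, cluster 15 of the finer resolution held 33 *Postn*-DTR UMIs, all in 1 of 57 cells (1.75%). In WT it held 72 UMIs in 16 of 388 cells (4.12%), so the share of cells went the other way. *Ccl22*, a CCR4 ligand of dendritic cells, was 0.493 and 0.251, within 2-fold. The cDC1-like and pDC-like classes held 15 and 13 *Postn*-DTR cells, under the limit for a comparison. *Cxcl9* was 0.896 and 5.62 in cDC1-like cells, the second value from 3 cells, and *Ccl4* 31.6 and 64.1 in pDC-like cells (1798 and 600 UMIs).

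In stromal-like cells 5 of 11 ligands were past 2-fold higher and 1 lower, where 4.64% of all genes were higher and 21.3% lower. Besides *Cxcl12* these were *Ccl6* (0.374 and 10.3), *Cxcl2* (0.0717 and 3.92), *Cxcl1* (0.295 and 2.56) and *Ccl7* (1.56 and 4.15). For *Ccl7*, 1 *Postn*-DTR cell held 90 of 160 UMIs, and the log2 ratio was 3.56 without the richest cell of each library. The source of *Ccl6*, *Cxcl1* and *Ccl7* was macrophage-like and that of *Cxcl2* neutrophil-like. Markers of both classes were also higher in these cells, and their part in the 4 values was not tested. Without the 11 cells rich in those markers *Cxcl1* was 0.307 and 2.84, *Ccl7* 1.61 and 3.94, *Ccl6* 0.0417 and 3.32 and *Cxcl2* 0.0767 and 1.03. *Ccl24* was lower, at 1.91 and 0.170, but 1 WT cell held 203 of its 216 UMIs. *Ccl2* was within 2-fold, at 1.77 and 3.42.

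Among innate lymphoid and mast-like cells, ILC2-like cells gave *Cxcl2* at 7.12 in WT mice (644 UMIs, 41 of 187 cells) against 13.5 in *Postn*-DTR mice (826 UMIs, 45 of 167 cells), a log2 ratio of 0.92 that lay just within 2-fold. *Ccl1*, the CCR8 ligand, was 1.67 and 0.336 there (126 and 23 UMIs), one of 3 ligands past 2-fold lower of 4 measured, against 2.85% of all genes, and *Ccr8* was highest in the same class, at 3.50 and 4.59. In CD4 T-like cells *Ccl1* was 0.158 and 0.402, past 2-fold higher, but 1 *Postn*-DTR cell held 54 of 62 UMIs and the log2 ratio was -1.21 without the richest cell of each library. LTi-like cells were the source of *Cx3cl1*, a membrane-anchored ligand, at 1.62 and 2.71 (48 and 64 UMIs in 24 of 54 and 31 of 49 cells), and their *Cxcl10*, at 4.33 and 1.31, owed 117 of 154 WT UMIs to 1 cell. Mast-like cells, with a median of 1046 UMIs, had *Ccl4* at 21.1 and 34.5, *Ccl2* at 11.7 and 14.0 and *Ccl3* at 9.80 and 11.7, all within 2-fold and, for *Ccl3* and *Ccl4*, carried by 10 of 88 WT cells and by 4 and 5 of 39 *Postn*-DTR cells.

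The remaining classes had few measured ligands. CD4 T-like cells gave 1 higher and 2 lower of 7 (all genes 2.06% and 2.25%), CD8 T-like cells 0 and 2 of 3 (1.77% and 5.87%), NKT-like cells 0 and 1 of 3 (2.24% and 3.16%) and gamma-delta T-like cells 0 and 2 of 3 (2.05% and 6.21%). ILC2-like cells gave 0 higher of 4 (3.51%), LTi-like cells 0 and 1 of 3 (3.86% and 1.81%) and mast-like cells 1 and 1 of 6 (6.24% and 13.2%). B2 B-like cells gave 0 and 1 of 2 (1.26% and 1.78%), Zbtb32-high B-like cells 0 and 1 of 3 (1.54% and 1.31%) and plasma-like cells 1 and 2 of 12 (1.91% and 3.17%). Granulocyte precursor-like cells gave 2 and 1 of 7 (0.986% and 2.15%), and the unnamed cluster 20 gave 3 and 1 of 6 (1.54% and 4.15%). Naive CD4 T-like cells had 0 ligands with enough UMIs (12% and 12.9%).

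Neighbouring genes varied in how alike their patterns over classes were. Over the same 36 points the Pearson correlation of log2 levels was 0.91 for *Ccl3* and *Ccl4*, whose starts lie 14.7 kb apart, 0.89 for *Ccl6* and *Ccl9* (15.0 kb), 0.85 for *Ccl2* and *Ccl7* (10.1 kb) and 0.72 for *Ccl17* and *Ccl22* (64.9 kb). It was 0.59 for *Cxcl1* and *Cxcl2* (12.6 kb), whose promoters share the NF-κB match shown above, 0.52 for *Ccl4* and *Ccl5* and 0.38 for *Cxcl9* and *Cxcl10* (25.3 kb). *Xcl1* and *Ccl5*, on different chromosomes, reached 0.80. These are descriptions over points that share libraries and depth.

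The remaining 7 members reached 50 UMIs in no named class, and 5 of them not even over both libraries. *Ccl11*, an eosinophil attractant, had 77 WT UMIs and 21 *Postn*-DTR UMIs, with 28 and 18 in stromal-like cells, and *Ccl17*, a CCR4 ligand, had 67 and 69 UMIs, of which cDC2-like cells held 30 and 11 and Zbtb32-high B-like cells 16 and 25. *Cxcl5* had 5 and 26 UMIs, *Cxcl14* 11 and 23 (19 of the latter in macrophage-like cells), *Ccl21a* and *Ccl28* 1 and 0 each, and the last of the 7 is *Ccl19*, above. Counts of *Ccl21a* and *Ccl27a* are uncertain, because each has near-identical copies in the genome. *Ccl20*, *Cxcl11* and other ligands of the genome annotation were not analysed here.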

How the data were processed

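Single cells of whole omenta were profiled on the 10x Chromium platform, 1 library of pooled mice for WT and 1 for *Postn*-DTR, 5 days after DT. The matrices deposited by the authors hold natural log values, ln(1 + UMIs per 10000) rounded to 3 decimals, with no counts. The submitters' processing notes name Cell Ranger 6.0.0 and mm10, whereas the study's methods name another version, and the labels name the 5′ reagent kit where the methods name the 3′ kit, so the part of a transcript that was read is uncertain. The matrices list 19960 genes, and 1060 of 1078 blank symbols were filled from GENCODE (release M21), which also gave coordinates.

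Values were returned to the linear scale, and whole UMIs were recovered from the step size of each cell (whole within 0.1 UMI for 99.95% of WT and 99.89% of *Postn*-DTR values). The level is the mean of the linear values over cells, and summed UMIs are given beside it. Cells with 200 to 7500 genes and at most 25% mitochondrial UMIs were kept. Seurat 5.3.0 (R 4.3.3, sctransform 0.4.2) clustered the joined libraries, uncorrected for batch, with 3000 variable features, less V, D and J segments and chemokine ligands, 30 principal components and Louvain resolution 0.8. A cluster was named from fixed markers where at least 3 of a list, and a share of at least 0.5 of it, were 2-fold above the other cells and present in 10% of cells, unless 25% of its cells were called doublets or its leading genes went against the name. These thresholds were set after the clusters were seen, and they left clusters 20, 24 and 27 unnamed. Scrublet (scanpy 1.11.5) called 135 WT and 103 *Postn*-DTR doublets at a score limit of 0.25 for both libraries, since its automatic limit marked only 2 WT cells. They were removed in an alternative only.

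With 1 library per group no test was run. Pairs with at least 50 UMIs were called past a 2-fold ratio of levels (0.02 UMIs per 10000 added to both) in classes with at least 20 cells per library. For *Cxcl13*, *Ccl19*, *Cxcl12* and *Xcl1* ratios have nothing added. Sums have exact Poisson, ratios of sums exact conditional binomial and shares exact Clopper-Pearson 95% intervals, all for counting error only, and a count of 0 was bounded by 3 UMIs. Calling was tried on simulated Poisson counts drawn from 1 profile per class. Changes of 4-fold in either direction were called for 100% of genes in macrophage-like and 99% in NK-like cells. Unchanged genes were called for 2.06% and 0.97%. No simulated cell could dominate a gene, so the simulation says nothing of pairs carried by single cells. Named were *Cxcl13*, *Ccl19*, *Cxcl12* and *Xcl1*, every ligand with 50 UMIs in a class, receptors of named ligands, and the 3 genes most correlated with each of the 4. The members and lists were chosen with earlier results of these data known. Promoters came from RefSeq (GRCm38.p6), 1 start per gene, with both strands searched. The counts of 1 ligand list and the level of 1 receptor gene are not reported here.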

Additional observations from a re-analysis of the deposited data

Results flagged for a closer look

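Several ligands were past 2-fold higher in one class and past 2-fold lower in another. With 1 library per group none of these differences between classes was tested, and for each ligand the highest and lowest class is given as the log2 ratio of levels in *Postn*-DTR over WT with 0.02 UMIs per 10000 added. *Xcl1* was at 1.14 in the unnamed cycling cluster 20 and at -3.24 in neutrophil-like cells, where 9 WT and 2 *Postn*-DTR cells held it and the summed level of 8 T cell markers was 1.51 and 0.351. *Cxcl13* was at 2.90 in granulocyte precursor-like cells, where 1 cell held 182 of 190 UMIs, and at -1.94 in macrophage-like cells. *Ccl3* was at 2.69 in neutrophil-like and -1.33 in NK-like cells, and its neighbour *Ccl4* at 1.71 in cDC2-like and -2.60 in granulocyte precursor-like cells. *Cxcl2* was at 5.42 in stromal-like cells, where 1 *Postn*-DTR cell held 89 of 115 UMIs, and at -4.09 in cluster 20. *Cxcl10* was at 1.31 in granulocyte precursor-like and -2.21 in monocyte-like cells. *Ccl24* was at 1.15 in cDC2-like and -3.35 in stromal-like cells, and *Ccl1* at 1.25 in CD4 T-like and -2.25 in ILC2-like cells.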

How the results depend on the processing

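No paired analysis was possible because each genotype has 1 library. The lower *Cxcl13* of macrophage-like cells (log2 ratio -1.95) was -2.63 by summed UMIs, -1.53 at Louvain resolution 1.6 and -1.74 with cells thinned to 1000 UMIs. In stromal-like cells *Cxcl13* (0.68) was 0.34 by summed UMIs, 0.50 when thinned, -0.01 without the richest cell of each library and -1.11 without cells rich in macrophage and neutrophil markers, the last chosen after seeing the data, and *Cxcl12* (1.88) was 3.14 by summed UMIs, 0.88 when thinned and 2.59 without shared barcodes, also chosen after seeing the data. *Xcl1* was -1.04 by summed UMIs in NK-like cells (-1.26), and -1.33 with at least 500 genes per cell and -1.43 when thinned in NKT-like cells (-0.74). In CD4 T-like cells *Xcl1* (-0.31) was 0.87 by summed UMIs, 0.10 at resolution 1.6, 0.99 with at least 500 genes and 0.08 with chemokine ligands kept for clustering, and in CD8 T-like cells (-2.72) it was 0.46 with at least 500 genes. The cause was not tested. Without the richest cell *Ccl1* in CD4 T-like cells was -1.21, *Ccl24* in cDC2-like cells -0.02, *Ccl5* in macrophage-like cells 1.10 and *Ccl3* in cluster 20 -1.16. *Ccl24* in cDC2-like cells was -1.33 at resolution 1.6, and *Ccl5* in macrophage-like cells 1.78 with chemokine ligands kept. At a minimum of 20 UMIs, 47 pairs were higher and 43 lower, of 176. Counts under the other settings ran from 21 to 32 higher and 22 to 32 lower. One library per genotype, few stromal cells and no measure of variation between mice limit every comparison.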
